A study of Mus musculus with 7 samples.

Results

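The 32 genes described here are those of glycolysis and of the transcriptional response to low oxygen: glucose and lactate transporters, glycolytic enzymes, kinases that set the flux, and targets of the hypoxia-inducible factors (HIF). They were taken by gene name from a list of pathway members, drawn up with earlier results of these data known, and all 32 were among the 25322 genes of the deposited table. Each passed the filter on low values, at least 1 per M in at least 3 libraries, as did 18141 genes in all.

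RNA was sequenced in bulk from skin cells that were sorted for tdTomato on day 36, tdTomato being a red fluorescent reporter protein. The 4 Zfp750_KO libraries came from mice with both Zfp750 alleles floxed (ZNF750 fl/fl in the labels), 3 of them Rosa26 +/- and 1 Rosa26 -/-. Of the 3 control libraries, 2 came from mice with 1 floxed allele and 1 from a mouse wild type for Zfp750, all Rosa26 +/-. Zfp750 encodes a transcription factor of epidermal differentiation. Every mouse, controls included, carried 1 copy of an inducible Cre recombinase under Lrig1 (Lrig1-CreERT2 or Lrig1-CreER +/-), a gene of stem cells in the upper hair follicle, and received 4-hydroxytamoxifen as a pup (days 4 to 7, or days 5 to 8). The deposited columns are named 1M, 2M, 3F and 6F for Zfp750_KO and 4F, 4M and 7F for controls. Within a group, values below follow this column order. The names give the group but not the sample, so the wild-type control and the Rosa26 -/- mouse could not be placed. Nothing in the labels says that each library came from an animal of its own, and p-values therefore measure the spread between these libraries.

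Glycolysis splits glucose into pyruvate in the cytosol and yields ATP without oxygen; lactate dehydrogenase then turns pyruvate into lactate, which leaves the cell through monocarboxylate transporters. When oxygen is present, prolyl hydroxylases mark the HIF alpha subunits for destruction. When it is scarce the subunits persist, pair with ARNT and bind short DNA elements with the core ACGTG or GCGTG, near many glycolytic genes among others. In skin, the epidermis holds no blood vessels of its own, and cells of the hair follicle rely heavily on glycolysis.

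Zfp750 itself was listed at 48.9, 45.4, 10.1 and 29.6 in the Zfp750_KO libraries, against 335, 51.2 and 61.9 in the controls. The groups did not overlap, and the log2 difference was -1.47 (two-sided exact permutation test, p = 0.0571 over 35 splits, the smallest p this design allows). Without control 4F it was -0.69. By estimate, between 9.09 and 17.1 M reads stood behind each library. The estimate divides the column total by its step, the value that 1 read appeared to be worth among low values. The macrophage and monocyte genes, a list of 20 of which all 20 were in the table and none was at 0 throughout, summed to 532 to 10288 per M of the column total in Zfp750_KO and to 218 to 5777 per M in controls. Fibroblast markers (8 of 8) summed to 17119 to 111871 per M in Zfp750_KO and to 86910.1 to 177317 per M in controls, and basal keratinocyte markers (6 of 6) to 165 to 1982 per M in Zfp750_KO and to 206 to 2166 per M in controls. Fibroblast markers thus outweighed those of basal keratinocytes in every library. A macrophage score, the mean log2 value of the 20 genes, was low in Zfp750_KO 1M and 2M (7.25 and 6.90) and control 4F (5.93), and high in Zfp750_KO 3F and 6F (11.02 and 10.72) and controls 4M and 7F (9.94 and 10.1). Both low-score Zfp750_KO columns carry the letter M and the low-score control F. If the letters give sex, low-score differences cannot be told apart from a difference by sex. Among Zfp750_KO the score also divides by letter, with M low and F high. In bulk RNA, fewer cells of a type and less RNA per cell cannot be told apart.

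With the group as the only term, no member passed an adjusted p of 0.05 (limma, Benjamini-Hochberg over 18141 genes), and neither did any other gene: 0% were called higher and 0% lower. At an unadjusted p under 0.05 this fit gave 10 members higher and 1 lower, against 396 genes higher (2.18%) and 662 lower (3.65%) over all genes tested. The same test with the macrophage score as a second term called 7 members higher in Zfp750_KO, none lower, and left 25 uncalled. Over all genes tested 1.56% were called higher and 2.37% lower. The 7 were Slc2a1, Tpi1, Pkm, Slc16a3, Egln3, Ndrg1 and Bnip3. This count depended on single libraries. It was 12 higher and 3 lower without control 4F, 4 higher and 1 lower without Zfp750_KO 1M, 3 higher without 2M, 3 without 3F, 4 without 6F, 2 without control 4M and 2 without control 7F.

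Without any fit, the values of many genes from glucose to lactate kept the groups apart. Of its 17 transporter and enzyme genes, 10 were higher in every Zfp750_KO library than in every control, whereas 3.19% of all genes tested were. The 10 were Slc2a1, Gpi1, Pfkl, Aldoa, Tpi1, Pgk1, Pgam1, Eno1, Pkm and Slc16a3. Of the other 15 members, 0 were higher in this sense and 1, Adm, was lower in every Zfp750_KO library, against 3.91% of all genes. The median log2 difference was 0.50 over the 17 and 0.07 over the 15 with the group alone, and 0.48 and 0.11 with the score, beside 0.02 over all genes tested in both fits.

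**Figure D1:**
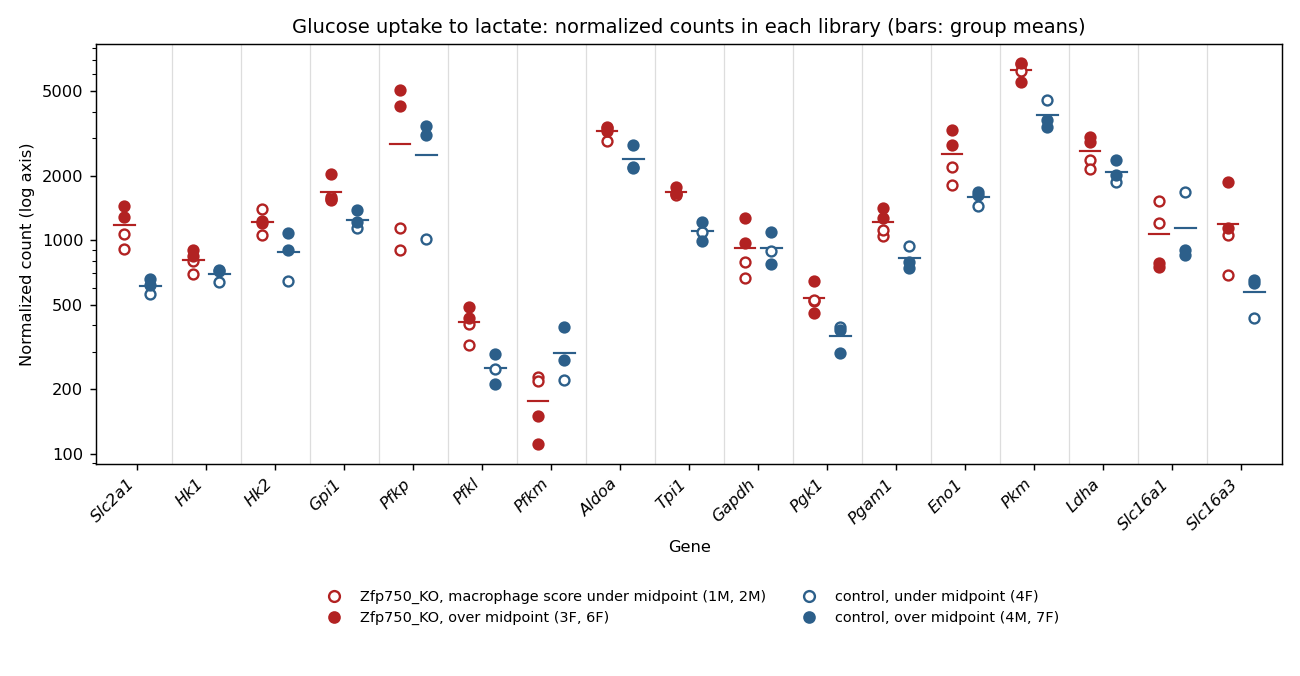
Normalized counts (log axis) of the 17 transporter and enzyme genes from glucose to lactate, each point 1 library, with Zfp750_KO (red, 4 libraries) left of control (blue, 3 libraries) and bars at group means. Open points are libraries under the midpoint of the macrophage score. In 10 of the 17 genes all red points lie above all blue points, and in Pfkp the open points of both groups lie below the filled ones.

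Promoter sequence is shown for 5 of the 7 genes called with the score, chosen to set promoters with the HIF core letters beside one without them. Each is the 250 bases before the transcription start, from RefSeq on GRCm38.p6, read 5′ to 3′ on the gene's own strand. Capitals mark ACGTG or GCGTG, or their reverse complements CACGT and CACGC. The windows are chr4:119108495-119108744 on the plus strand for Slc2a1, chr6:124814159-124814408 on the minus strand for Tpi1, chr11:120948817-120949066 on the plus strand for Slc16a3, chr12:54203875-54204124 on the minus strand for Egln3 and chr7:138909507-138909756 on the minus strand for Bnip3.
Slc2a1: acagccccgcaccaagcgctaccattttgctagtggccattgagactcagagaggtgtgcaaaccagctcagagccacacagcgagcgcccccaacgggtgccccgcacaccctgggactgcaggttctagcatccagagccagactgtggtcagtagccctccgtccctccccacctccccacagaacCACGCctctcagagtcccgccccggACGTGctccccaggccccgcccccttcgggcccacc
Tpi1: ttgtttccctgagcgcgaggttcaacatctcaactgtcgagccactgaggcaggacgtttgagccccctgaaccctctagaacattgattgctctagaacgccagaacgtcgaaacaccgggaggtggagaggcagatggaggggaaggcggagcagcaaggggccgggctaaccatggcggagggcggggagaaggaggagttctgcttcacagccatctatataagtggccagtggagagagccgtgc
Slc16a3: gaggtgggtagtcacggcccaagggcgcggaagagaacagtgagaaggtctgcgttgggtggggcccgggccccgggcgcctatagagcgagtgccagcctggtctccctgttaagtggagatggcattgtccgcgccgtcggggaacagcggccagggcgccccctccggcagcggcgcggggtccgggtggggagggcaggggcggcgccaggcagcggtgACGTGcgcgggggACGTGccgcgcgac
Egln3: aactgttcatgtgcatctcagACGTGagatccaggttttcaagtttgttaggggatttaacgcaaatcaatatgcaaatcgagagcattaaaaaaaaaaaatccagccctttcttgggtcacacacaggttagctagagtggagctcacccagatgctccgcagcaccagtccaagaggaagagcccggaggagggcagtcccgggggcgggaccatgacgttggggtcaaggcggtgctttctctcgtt
Bnip3: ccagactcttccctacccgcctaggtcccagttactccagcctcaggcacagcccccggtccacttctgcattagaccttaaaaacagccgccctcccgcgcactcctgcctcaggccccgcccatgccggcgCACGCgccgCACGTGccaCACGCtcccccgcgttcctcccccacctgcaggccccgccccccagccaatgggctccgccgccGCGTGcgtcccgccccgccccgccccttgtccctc

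In Slc2a1 the ACGTG began 36 bases before the start. Slc16a3 held 2 copies, 27 and 14 bases before it, while the match in Egln3 lay 229 bases before it and Tpi1 had none in this window. In Bnip3 the ACGTG and its reverse complement overlapped as the palindrome CACGTG, 108 bases before the start, with 3 GCGTG matches around it. RefSeq promoters were matched for 31 of the 32 members, all but Ndrg1. Searched on both strands, ACGTG occurred in at least 1 promoter of 20 of the 31 members, against 18.5% of all 27025 genes. It occurred in 50% of the members' 46 promoters, against 16.6% of all 32851 promoters of the same length. GCGTG occurred in 22 of the 31 members, against 30.9% of all genes, and in 54.3% of the 46 promoters, against 28.2% of all. CACGTG, which contains ACGTG, occurred in 6 of the 31 members, against 6.86% of all genes. It occurred in 13.0% of the 46 promoters, against 6.02% of all. Some windows of a gene overlap, as in Aldoa and Eno1, so the shares of promoters can count a match more than 1 time. Base composition differed as well: the median GC content was 62.8% in the member promoters and 52.4% in all, and the median number of CG pairs was 15 and 6. The part of base composition in these shares was not tested. The members include genes listed because they are HIF targets, so these shares are not independent of how the list was chosen. Members also had more promoters per gene, 46 for 31 against 32851 for 27025, which gives a match in at least 1 more room to occur. Tpi1 lacked both motifs, while Hk2, which was not called, held ACGTG. Vegfa, also not called, held it at chr17:46025164-46025413 but held neither motif in its upstream window, chr17:46032378-46032627, both on the minus strand. The window with the match lies downstream of the other annotated start. The counts of members with ACGTG and with GCGTG include Vegfa through that window alone.

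Glucose enters cells through Slc2a1 (GLUT1, the basal glucose transporter, chromosome 4) and is trapped by hexokinases. Slc2a1 had normalized counts of 1072, 911, 1451 and 1279.6 in the Zfp750_KO libraries, against 561, 616 and 660.3 in the controls. Every Zfp750_KO library lay above every control, and the 2 Zfp750_KO libraries with high macrophage scores were the highest. Slc2a1 averaged 1178 ± 236 in Zfp750_KO and 612 ± 49.6 in controls (SD, n = 4 and 3), a log2 difference of 0.88 ± 0.14 (SE) with the score (limma, Benjamini-Hochberg adjusted p = 0.0106). The difference was 0.80 among libraries with low scores and 1.08 among those with high scores. Its adjusted p passed 0.05 in 18 of 20 alternative settings of the processing and the fit, and was lost without control 4M or control 7F. Hk2, the inducible hexokinase, had 1397, 1064, 1211 and 1226 in the Zfp750_KO libraries, against 646, 1084 and 904 in the controls. The 2 groups overlapped because control 4M lay just above Zfp750_KO 2M. Hk1, the housekeeping hexokinase, ran 697 to 896 in Zfp750_KO and 637 to 729 in controls. Levels per kilobase, here and below, divide by the merged exons of all annotated transcripts. By them Hk2 made up 66.2% to 71.4% of the Hk1 and Hk2 sum in Zfp750_KO and 59.2% to 68.0% in controls.

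Upper glycolysis turns glucose 6-phosphate into triose phosphates. Gpi1, the isomerase that makes fructose 6-phosphate, had 1591, 1556, 2049 and 1552 in the Zfp750_KO libraries, against 1144, 1386 and 1214 in the controls. All 4 Zfp750_KO libraries were above the controls, 3 of them close together and 3F apart; the log2 difference of 0.41 ± 0.14 (SE, with the score) did not pass the limma test (Benjamini-Hochberg adjusted p = 0.169). Aldoa, the aldolase that splits fructose 1,6-bisphosphate, had 3368, 2922, 3399 and 3270.0 in the Zfp750_KO libraries, against 2210.3, 2788 and 2190.0 in the controls. The groups were apart by a small margin, 2922 in Zfp750_KO 2M against 2788 in control 4M, and 0.43 ± 0.15 did not pass either (adjusted p = 0.159, limma, Benjamini-Hochberg). Tpi1, triose phosphate isomerase, had 1647, 1633, 1779.9 and 1659 in the Zfp750_KO libraries, against 1093, 1219 and 992 in the controls. Its Zfp750_KO values lay close together, with means of 1679.8 ± 67.6 in Zfp750_KO and 1101 ± 114 in controls (SD, n = 4 and 3), and its log2 rise was 0.60 ± 0.13 (SE; limma, Benjamini-Hochberg adjusted p = 0.0409). That call is near the threshold: it held in 12 of 20 settings, but leaving out any library other than control 4F ended it, while the difference was 0.58 among low-score and 0.64 among high-score libraries.

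The 3 phosphofructokinase genes, which encode the committed step of glycolysis, differed in pattern. Pfkl, the liver-type subunit, had 322, 406, 489 and 432 in the Zfp750_KO libraries, against 249, 293 and 211 in the controls. Every Zfp750_KO library was above every control, at a log2 difference of 0.67 ± 0.18 (SE, with the score) that missed the threshold (limma, Benjamini-Hochberg adjusted p = 0.0786). Pfkp, the platelet-type subunit, had 898, 1144, 5049.8 and 4239.8 in the Zfp750_KO libraries, against 1010.0, 3451 and 3111 in the controls. It was low in the 3 libraries with low macrophage scores of either group and high in the 4 others, so the groups overlapped fully. Pfkm, the muscle-type subunit, had 228, 218, 110.5 and 149 in the Zfp750_KO libraries, against 223, 393 and 274 in the controls. Control 4M was the highest and Zfp750_KO 3F the lowest. Skeletal muscle markers (10 of 10 in the table) summed to 8.23 to 61.6 per M in Zfp750_KO and to 28.8 to 662 per M in controls, highest in control 4M and 7F, where Pfkm was also highest among the controls; their part in the Pfkm values was not tested. Per kilobase Pfkp made up 36.5% and 40.4% of the 3 subunits in Zfp750_KO 1M and 2M and 42.0% in control 4F. It made up 78.0% and 74.3% in Zfp750_KO 3F and 6F against controls 4M (61.5%) and 7F (67.1%). The merged exons span 13.4 kb in Pfkp, 6.675 kb in Pfkl and 3.34 kb in Pfkm, so the size of these shares depends on the annotation.

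Lower glycolysis recovers ATP and yields pyruvate. Pgk1, the first of its ATP-forming kinases, had 519, 525, 643 and 455 in the Zfp750_KO libraries, against 392, 381 and 296 in the controls. Pgam1, the phosphoglycerate mutase, had 1043, 1122, 1424 and 1275 in the Zfp750_KO libraries, against 941, 790.2 and 742 in the controls. Eno1, the enolase, had 2213, 1821, 3284 and 2807 in the Zfp750_KO libraries, against 1453, 1683 and 1627 in the controls. In all 3 genes the groups did not overlap and Zfp750_KO 3F was the highest library, yet none passed the test with the score: the log2 differences were 0.58 ± 0.17 for Pgk1, 0.55 ± 0.16 for Pgam1 and 0.60 ± 0.15 for Eno1 (SE; limma, Benjamini-Hochberg adjusted p = 0.110, 0.103 and 0.0662). Copies of these genes were found by name, and whether reads were shared with them was not tested. The copy Eno1b had 1188 to 2256 in Zfp750_KO and 816 to 957 in controls, and Pgk1-rs7 had 363 to 468 in Zfp750_KO and 209 to 263 in controls. In Pgam1-ps2 the groups overlapped, at 319.6 to 419.7 in Zfp750_KO and 223 to 361 in controls. Summed with its named copies Pgk1 passed, at 0.66 (limma, Benjamini-Hochberg adjusted p = 0.0406, range over its 20 settings 0.0406 to 0.382); Eno1, at 0.68, did not, with an adjusted p of 0.0502 (its range 0.00769 to 0.269), and neither did Pgam1, at 0.53 with an adjusted p of 0.0956 (its range 0.00726 to 0.362).

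Pkm, the pyruvate kinase of the last step, had 6691, 6205, 6771 and 5513 in the Zfp750_KO libraries, against 4549, 3663 and 3394 in the controls. The lowest Zfp750_KO library, 6F, was still above the highest control, 4F. Pkm averaged 6295 ± 578 in Zfp750_KO and 3869 ± 604 in controls (SD, n = 4 and 3) and rose by 0.72 ± 0.16 on the log2 scale (SE; limma with the score, Benjamini-Hochberg adjusted p = 0.0417), a call kept in 12 of 20 settings but, as for Tpi1, ended by leaving out any library other than control 4F. Gapdh, the triose phosphate dehydrogenase, behaved otherwise, with 667, 787, 1267 and 971 in the Zfp750_KO libraries, against 892, 1091 and 777 in the controls. Its groups overlapped completely and its means were equal within the spread, 923 ± 261 in Zfp750_KO and 920.1 ± 159 in controls (SD). Its level per kilobase was 223 in either group, below that of Tpi1 (610.2 in Zfp750_KO and 400.1 in controls). The merged exons span 4.13 kb in Gapdh and 2.75 kb in Tpi1, so this comparison depends on the annotated lengths. Gapdh-ps16, the one copy of it found by name in the table, had at most 7.37, and what part other copies may have in its value was not tested.

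At the end of the pathway, Slc16a3 (MCT4, which exports lactate) had 686, 1063, 1883 and 1139 in the Zfp750_KO libraries, against 432, 648 and 634 in the controls. All Zfp750_KO libraries were above the controls, although 1M exceeded the highest control by little. Slc16a3 averaged 1193 ± 501 in Zfp750_KO and 572 ± 121 in controls (SD, n = 4 and 3) and rose by 0.93 ± 0.21 on the log2 scale (SE; limma with the score, Benjamini-Hochberg adjusted p = 0.0481); 10 of 20 settings kept the call, which ended without Zfp750_KO 2M, 3F or 6F or control 4M or 7F. Slc16a1 (MCT1, a carrier of lactate in both directions) had 1529, 1209, 749.6 and 784 in the Zfp750_KO libraries, against 1682, 903 and 850.4 in the controls. It was high in the libraries with low macrophage scores, control 4F above all, and overlapped between groups. Of the per-kilobase sum of both carriers, Slc16a3 made up 27.2% to 67.6% in Zfp750_KO and 17.6% to 38.3% in controls. Ldha, the lactate dehydrogenase subunit that favours lactate, had 2382, 2166, 3065 and 2892 in the Zfp750_KO libraries, against 1871, 2379 and 2016 in the controls. Control 4M was above Zfp750_KO 2M and level with 1M, so the groups overlapped.

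The kinases that set glycolytic flux gave no call with the score. Pfkfb3, which makes the fructose 2,6-bisphosphate that activates phosphofructokinase, had 833, 909.9, 1453 and 1050.3 in the Zfp750_KO libraries, against 262, 932 and 1035 in the controls. Control 4F stood far below the 6 other libraries. A test of whether the Zfp750_KO difference depended on the macrophage score stratum called Pfkfb3 alone of the 32 members (limma interaction, Benjamini-Hochberg adjusted p = 0.0255; 4.6% of all genes were called in either direction). The log2 difference was 1.69 among low-score libraries and 0.33 among high-score ones. It rests on control 4F as the only low-score control, which the test takes to vary like the other libraries. The call was lost without Zfp750_KO 2M, control 4M or control 7F. Low-score Zfp750_KO columns carry M and 4F carries F, so sex, if the letters give it, cannot be told apart here. Pdk1, a kinase that blocks pyruvate dehydrogenase, had 489, 621, 453 and 379 in the Zfp750_KO libraries, against 581, 256 and 296 in the controls. Control 4F lay among the Zfp750_KO libraries and the other controls below them. Pfkfb4, an isoform of Pfkfb3, ran 132 to 606 in Zfp750_KO and 239 to 378 in controls.

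**Figure D2:**
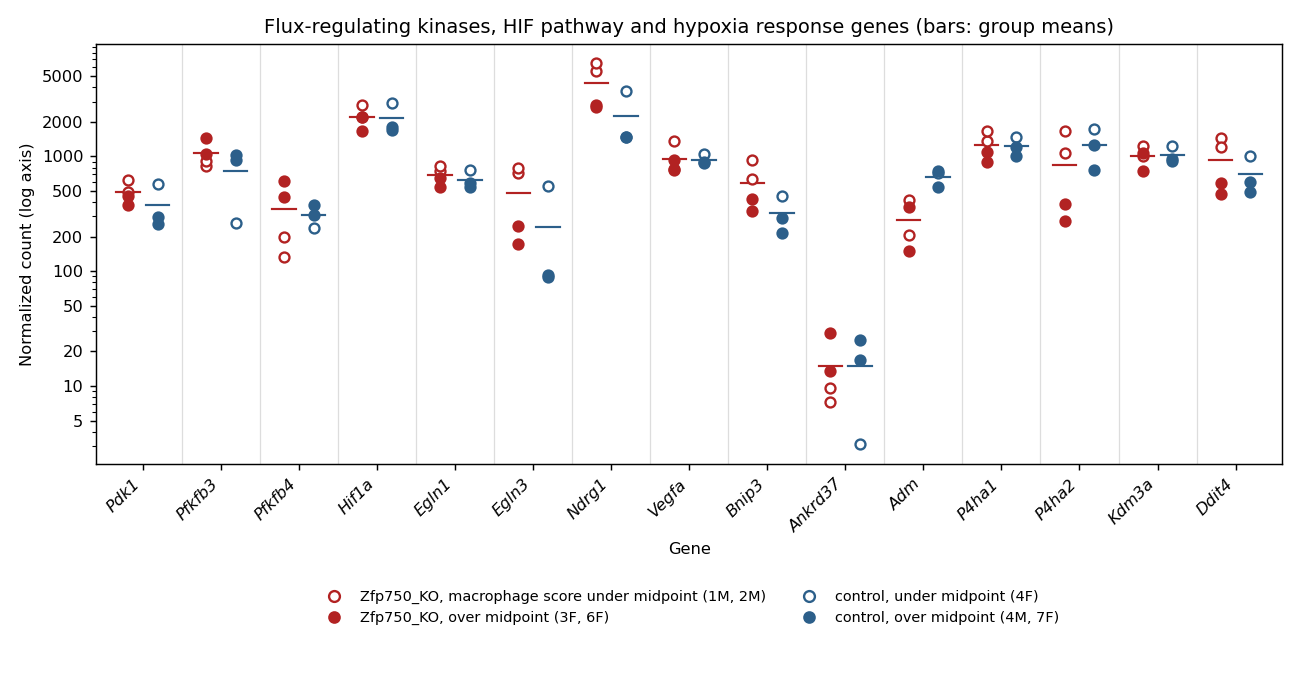
Normalized counts (log axis) of the 15 flux kinase, HIF pathway and hypoxia response genes, each point 1 library, with Zfp750_KO (red, 4 libraries) left of control (blue, 3 libraries) and bars at group means. Open points are libraries under the midpoint of the macrophage score. In Pfkfb3, Egln3, Ndrg1 and Bnip3 both open red points lie above the open blue point and both filled red points above the filled blue ones. In P4ha2 this order is reversed. The share of all genes with either pattern was not counted. In Adm all red points lie below all blue ones.

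Among the HIF system itself, the oxygen-labile subunit and its main hydroxylase did not separate the groups. Hif1a, the alpha subunit, had 2819, 2204, 2211 and 1657 in the Zfp750_KO libraries, against 2914, 1700.0 and 1811 in the controls. Egln1 (PHD2, the main oxygen sensor of the family) had 745, 821, 542 and 652 in the Zfp750_KO libraries, against 756, 584 and 542 in the controls. In both, control 4F was close to the highest Zfp750_KO library and the other controls were close to the lowest. HIF activity is set largely through protein stability, which RNA does not measure.

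Egln3 (PHD3, a prolyl hydroxylase that is itself a HIF target) had 724, 785, 174 and 249 in the Zfp750_KO libraries, against 551, 89.3 and 93.4 in the controls. Zfp750_KO 1M and 2M exceeded the low-score control 4F, and 3F and 6F exceeded the high-score controls 4M and 7F. The groups thus overlapped over 7 libraries but not within the low-score or the high-score ones. The share of all genes with this pattern was not counted. On both sides the Zfp750_KO libraries had somewhat higher scores than the controls. Its log2 difference was 1.34 ± 0.17 with the score (SE; limma, Benjamini-Hochberg adjusted p = 0.00501), above the 0.44 among low-score and 1.09 among high-score libraries taken by themselves. With the group alone it was 1.18 ± 0.78 (SE) and not called. The call with the score held in all 20 settings, 7 of which leave out a library, with the difference between 0.83 and 1.78. Its share of the per-kilobase sum of Egln1 and Egln3 was 56.7% and 56.4% in Zfp750_KO 1M and 2M against 49.6% in control 4F, and 30.2% and 34.1% in Zfp750_KO 3F and 6F against controls 4M (17.1%) and 7F (18.9%).

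Ndrg1, a hypoxia-induced gene of differentiating epithelium, had 5554, 6501, 2796 and 2695 in the Zfp750_KO libraries, against 3715, 1481 and 1488 in the controls. As in Egln3, every Zfp750_KO library was above the controls within the low-score and within the high-score libraries, whose scores are not matched. This pattern was not particular to these genes. Among members whose groups overlapped over all libraries, Hk1, Hk2, Ldha, Pfkfb3 and Bnip3 also had it, and P4ha2 had its reverse. Ndrg1 rose by 1.10 ± 0.13 on the log2 scale (SE; limma with the score, Benjamini-Hochberg adjusted p = 0.00365), in all 20 settings, above the 0.69 among low-score and 0.88 among high-score libraries taken by themselves. Bnip3, a mitochondrial protein of hypoxic mitophagy, had 639, 935, 427 and 332 in the Zfp750_KO libraries, against 449.7, 216 and 294 in the controls. It rose by 0.87 ± 0.19 (SE; limma with the score, Benjamini-Hochberg adjusted p = 0.0449), kept in 10 of 20 settings and ended without Zfp750_KO 1M, 2M or 3F or control 4M or 7F. Within the low-score and the high-score libraries its groups did not overlap, though Zfp750_KO 6F exceeded control 7F by little.

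Adm, which encodes the vasodilator peptide adrenomedullin, had 414, 205, 359.6 and 150.1 in the Zfp750_KO libraries, against 717, 538 and 740.1 in the controls. It was lower in every Zfp750_KO library than in any control, averaging 282 ± 125 in Zfp750_KO and 665 ± 110.5 in controls (SD, n = 4 and 3). The log2 difference of -1.28 ± 0.32 (SE, with the score) did not pass (limma, Benjamini-Hochberg adjusted p = 0.0639), though it did in 5 of 20 settings. It was -1.26 among low-score and -1.39 among high-score libraries.

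The 6 remaining hypoxia response genes gave no separation. Vegfa, the main angiogenic growth factor, ran 767 to 1349 in Zfp750_KO and 875 to 1042 in controls. Kdm3a, a histone demethylase, ran 747 to 1221 in Zfp750_KO and 912 to 1239 in controls. Ddit4, an inhibitor of mTORC1, ran 475 to 1443 in Zfp750_KO and 488 to 1005 in controls. In Ddit4 the libraries with low macrophage scores were the highest of each group. P4ha1, a collagen prolyl hydroxylase subunit, ran 902 to 1652 in Zfp750_KO and 1012 to 1479 in controls. P4ha2, its isoform, ran 273 to 1661 in Zfp750_KO and 758 to 1733 in controls. It was lowest in Zfp750_KO 3F and 6F, where fibroblast markers were also lowest. The part of fibroblasts in the P4ha2 values was not tested. Zfp750_KO 1M and 2M lay below the low-score control 4F, and 3F and 6F below the high-score controls 4M and 7F. The share of all genes with this pattern was not counted. Ankrd37, a small HIF target, rested on an estimated 4 to 42 reads a library, too few to show a difference of moderate size.

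**Figure D3:**
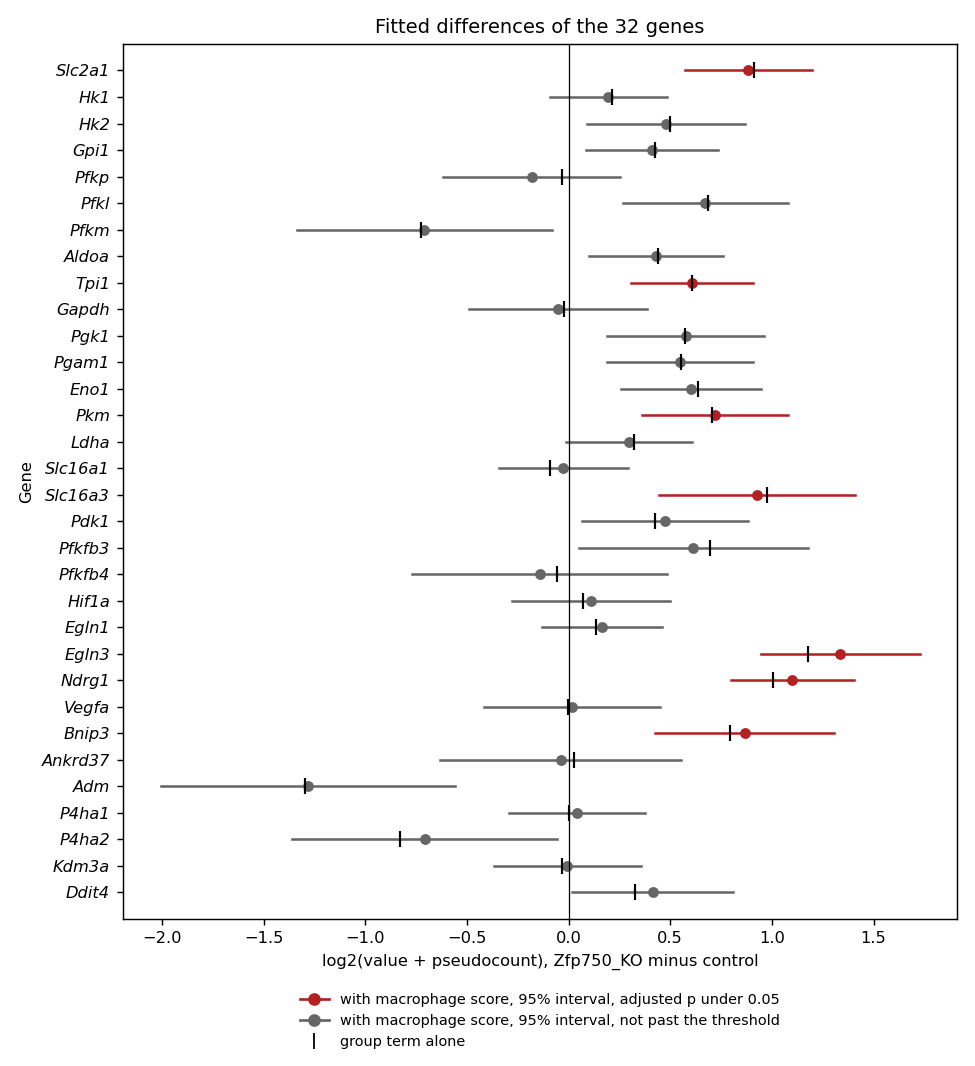
Log2 difference, Zfp750_KO minus control, with 95% confidence intervals, for the 32 genes in the fit with the macrophage score (points, red where called); black ticks give the difference with the group alone. The 7 genes called with the score lie at 0.60 to 1.34, and Adm lies farthest below 0, at -1.28.

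Over the 4 libraries with high macrophage scores alone, 2 per group, 9 members were called higher (limma with the group alone, Benjamini-Hochberg): Slc2a1, Pfkl, Tpi1, Pgam1, Eno1, Pkm, Slc16a3, Egln3 and Ndrg1. Over all 17214 genes tested there 5.14% were called higher and 7.02% lower. Slc2a1 differed by 1.08 ± 0.18 and Eno1 by 0.87 ± 0.17 on the log2 scale (SE, limma, Benjamini-Hochberg adjusted p = 0.00236 and 0.00656). Lower were Pfkm (-1.27 ± 0.26), Adm (-1.39 ± 0.33) and P4ha2 (-1.56 ± 0.25), with Benjamini-Hochberg adjusted p of 0.00786, 0.0161 and 0.00242 by limma. Even here the macrophage score was 10.72 to 11.02 in Zfp750_KO and 9.94 to 10.1 in controls, fibroblast markers summed to 17119 and 50240.9 per M in Zfp750_KO and 148763 and 86910.1 per M in controls, and skeletal muscle markers were higher in controls. T cell markers (7 of 7 in the table) summed to 135 and 93.7 per M in Zfp750_KO and 35.4 and 49.7 per M in controls, and neutrophil markers (5 of 7) to 91.1 and 48.0 per M in Zfp750_KO and 9.24 and 13.8 per M in controls. Both were also higher in Zfp750_KO on the low-score side, T cell markers at 13.7 and 16.3 against 2.40 per M and neutrophil markers at 12.3 and 6.16 against 0.293 per M. The part of these cells in the results was not tested. This comparison was chosen after seeing the data.

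**Figure D4:**
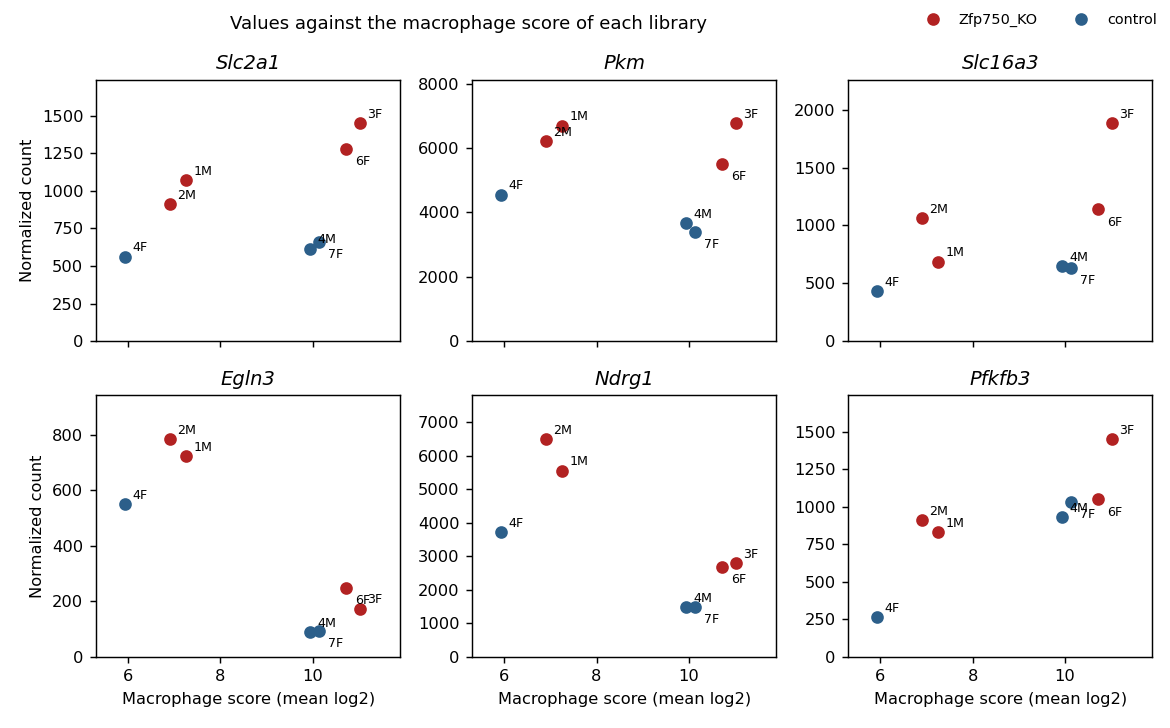
Normalized counts of Slc2a1, Pkm, Slc16a3, Egln3, Ndrg1 and Pfkfb3 against the macrophage score of each library, with Zfp750_KO in red (4 libraries) and control in blue (3 libraries), each point labelled with its library. Egln3 and Ndrg1 are lower at high scores in both groups, with Zfp750_KO above control on each side, and in Pfkfb3 control 4F lies far below the other libraries.

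Of 122 tested genes of the same pathways outside the 32, 5 were called higher with the score (4.10%) and 3 lower (2.46%), beside 1.56% and 2.37% of all genes tested. Of the 17 tested among other glycolysis and gluconeogenesis enzymes and isoforms, 1 rose with the score and none fell. It was Bpgm, which makes 2,3-bisphosphoglycerate beside the main pathway, with 3299, 3115, 174 and 209 in the Zfp750_KO libraries, against 332, 101 and 107 in the controls. Zfp750_KO 1M and 2M were far above all other libraries. The log2 difference was 2.51 ± 0.45 (SE; limma with the score, Benjamini-Hochberg adjusted p = 0.0186), 3.23 among low-score and 0.80 among high-score libraries, with a limma interaction at a Benjamini-Hochberg adjusted p of 0.000984. Control 4F is again the only low-score control, and that p takes it to vary like the other libraries. The letters M and F differ between the low-score groups here too. None of the 15 other glucose and monocarboxylate carriers was called. Slc2a9, a urate and hexose carrier, was higher in every Zfp750_KO library, with 96.6 to 116 in Zfp750_KO and 58.8 to 88.0 in controls. It was 1 of the 15 (6.67%), against 3.19% of all genes tested.

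Of 11 genes of the pyruvate dehydrogenase complex and its regulators, 1 rose: Pdk3, another kinase that blocks the complex, had 357, 282, 286 and 251 in the Zfp750_KO libraries, against 212, 138 and 152 in the controls, with every Zfp750_KO library above the controls. Its log2 difference was 0.81 ± 0.17 (SE; limma with the score, Benjamini-Hochberg adjusted p = 0.0337; 14 of 20 settings). None of the 8 pentose phosphate genes was called, with Tkt, the transketolase, at 887 to 1562 in Zfp750_KO and 869 to 1119 in controls and H6pd, the dehydrogenase of the endoplasmic reticulum, at 787 to 2662 in Zfp750_KO and 775 to 858 in controls. Of 13 glycogen genes 2 fell. Ppp1r3c, which targets a phosphatase to glycogen, had 52.0, 43.5, 56.4 and 81.3 in the Zfp750_KO libraries, against 124, 184 and 214 in the controls, below the controls in every Zfp750_KO library (log2 difference -1.44 ± 0.20, SE; limma with the score, Benjamini-Hochberg adjusted p = 0.00744). Pygm, the muscle glycogen phosphorylase, had 48.9, 54.1, 122 and 79.2 in the Zfp750_KO libraries, against 105, 596 and 382 in the controls (log2 difference -1.96 ± 0.29, SE; limma with the score, Benjamini-Hochberg adjusted p = 0.00900). It was highest in control 4M and 7F, the libraries with the most skeletal muscle RNA, whose part was not tested.

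None of the 13 HIF subunits and regulators was called. Hif3a, an alpha subunit with inhibitory forms, was lower in every Zfp750_KO library, with 5.80 to 15.8 in Zfp750_KO and 17.8 to 40.7 in controls. It was 1 of the 13, against 3.91% of all genes tested. Of 46 other HIF targets 3 rose and 1 fell with the score. Without any fit, 5 of the 46 (10.9%) were higher in every Zfp750_KO library than in every control, against 3.19% of all genes tested. They were Car9, Hmox1, Pgf, Nos2 and Rab20. Another 2, Edn1 and Zfp395, were lower in every Zfp750_KO library, against 3.91% of all genes. Pgf, a relative of Vegfa, had 79.0, 87.9, 50.7 and 121 in the Zfp750_KO libraries, against 17.8, 21.0 and 37.1 in the controls, so that the groups did not overlap (log2 difference 1.35 ± 0.31, SE; limma with the score, Benjamini-Hochberg adjusted p = 0.0460). Bhlhe40, a transcriptional repressor, had 8139, 6437, 3949.5 and 3707 in the Zfp750_KO libraries, against 4113, 3182 and 2053 in the controls, with Zfp750_KO 3F and 6F below control 4F (log2 difference 0.87 ± 0.19, SE; limma with the score, Benjamini-Hochberg adjusted p = 0.0427). Cxcr4, a chemokine receptor carried by leukocytes, had 627, 646, 3969 and 1975 in the Zfp750_KO libraries, against 209.8, 725 and 1100.1 in the controls (log2 difference 1.09 ± 0.22, SE; limma with the score, Benjamini-Hochberg adjusted p = 0.0289). It was highest where the leukocyte marker Ptprc was highest, 39.2 to 1247 per M in Zfp750_KO and 4.46 to 700.3 per M in controls; the part of leukocyte RNA beyond the score was not tested. The gene that fell was Selenbp1, a methanethiol oxidase, with 49.9, 53.1, 76.6 and 89.5 in the Zfp750_KO libraries, against 75.8, 146 and 184 in the controls (log2 difference -0.91 ± 0.20, SE; limma with the score, Benjamini-Hochberg adjusted p = 0.0433). Leaving out control 4M, or control 7F, ended the calls of Pdk3, Ppp1r3c, Pygm, Pgf, Bhlhe40, Cxcr4 and Selenbp1. Leaving out any Zfp750_KO library also ended those of Pdk3, Bhlhe40 and Selenbp1, as did 1M, 2M or 6F for Pgf and 2M for Cxcr4. The call of Bpgm ended without Zfp750_KO 2M or control 4M. Of 20 settings, calls held in 18 for Pygm and for Ppp1r3c, 17 for Bpgm and 15 for Cxcr4. They held in 11 for Bhlhe40, 10 for Selenbp1 and 9 for Pgf. A pseudocount of 5 per M, no filter, or a fibroblast score in place of the macrophage score ended those of Pgf and Selenbp1. The fibroblast score and log2 Ptprc each ended that of Cxcr4.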

How the data were processed

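The authors deposited 1 table of normalized counts, 1 column per library. They are called normalized counts per the file headers and were treated as a signal, not as raw counts, since below 200 reads only 78.0% to 79.6% were whole multiples of a library's step (within 0.02 reads). Count tests were therefore not run, although planned for counts. The submitters' processing notes name TopHat2 2.1.0 and Partek 9.0.20.0202. For genome build and strand setting, the sources used here give nothing. Libraries were made with a NEBNext Ultra II kit, per the labels' protocols.

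Values were analysed as log2(value + 11.9), the pseudocount being 1 per M of the columns' median total, a scale that understates the change of low genes. Genes with at least 1 per M in at least 3 libraries were tested with limma 3.58.1 (R 4.3.3, lmFit and eBayes with a trend), Benjamini-Hochberg adjusted over all 18141 genes at 0.05. The fits had the group alone (5 residual degrees of freedom), the group and the macrophage score (4), or the group, the score stratum and their interaction (3). The strata divide libraries at 8.48, the midpoint of the score's range. The score enters because macrophage RNA varied widely within both groups, and it does not remove other differences in composition. The fits with the group alone and with the macrophage score were tested on simulated data. The interaction fit, the fits with other terms and the fit on the high-score libraries were not. The simulated data gave all genes a common dispersion and had no composition trend other than that of the macrophage score. They cannot show how the fits behave where other cell types differ, as they do in these libraries. Alternatives covered pseudocounts, filters, scalings, a term for sex as read from the letters M and F, other scores and leaving out each library. By rule, values in every library are given for members called or not overlapping, and for the highest 2 of a role with fewer than 2 of these. Other members are given by range. From other lists up to 4 called genes are named, else 2 that do not overlap, else the 2 highest. The members, lists and tests were chosen with earlier results of these data known. Exon lengths came from GENCODE M21, matched by gene ID, with the exons of all transcripts of a gene merged. They can exceed the length of the main transcript. Promoters came from RefSeq.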

Additional observations from a re-analysis of the deposited data

Results flagged for a closer look

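Gpi1 in Zfp750_KO 3F, at a normalized count of 2049, stood apart from the 3 other Zfp750_KO libraries, which lay within a narrow band below it. Its gap to the next library was 0.921 of the group's range, above Dixon's critical value for 4 samples. Chance marks about 1 group in 20, and 40 groups were examined. Pfkfb3 had a Zfp750_KO difference that was -1.36 on the log2 scale in libraries with high minus those with low macrophage scores, by a limma interaction test. Bpgm had -2.42 by the same test. Both rest on 1 control with a low score, whose spread is taken from the other libraries. Its column carries F and the low-score Zfp750_KO columns carry M, so a difference by sex, if the letters give it, cannot be told apart.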

How the results depend on the processing

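No paired analysis was possible because the columns carry no replicate numbers of the labels. DESeq2 and edgeR were not run, as whole reads were not recovered. With the group alone the count of called genes stayed at 0 in every setting except the 4 high-score libraries, with 9 members higher and 3 lower, and 884 and 1208 over all genes. With the score, members called higher numbered 4 after upper-quartile scaling and 3 with log2 Ptprc in its place; members called lower numbered 1 with column-total scaling, 3 with a sex term and 1 with a stratum term. Over all genes, calls higher were 548 with sex, 521 with a fibroblast score, 580 with the stratum and 133 with Ptprc, and calls lower 740 with sex and 280 with Ptprc. Over the other lists, calls higher were 3 (upper quartile), 9 (fibroblast score) and 1 (Ptprc), and lower 6 (sex) and 5 (stratum). The cause was not tested. Leaving out 1 library gave 2 to 12 members higher and 0 to 3 lower, 59 to 601 and 98 to 968 over all genes, 0 to 9 and 0 to 11 over the other lists, and 0 to 1 by interaction, which could not be fitted without control 4F. The Zfp750 difference then ran from -1.92 to -0.69. With the score, 9 of the 32 members, given above by their values, changed sign between settings: Pfkp, Gapdh, Slc16a1, Pfkfb4, Hif1a, Vegfa, Ankrd37, P4ha1 and Kdm3a. Under the other scalings the median log2 difference of all genes was -0.02 to 0.05. Among the members, depth limits Ankrd37 most.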

Other observations

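Eno3, the muscle enolase, was chosen after its values were seen. It had 46.8, 47.3, 40.6 and 22.7 in the Zfp750_KO libraries, against 37.2, 261 and 157 in the controls, so that control 4M and 7F, the libraries with the most skeletal muscle RNA, stood above the 5 others. The part of muscle RNA in these values was not tested.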
